A study of Homo sapiens with 6 samples.

Results

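The interleukin-1 and interleukin-18 family was examined in HepG2 cells through 10 genes: the ligand-side genes IL1RN, IL18 and IL18BP, the receptors IL1R1, IL1R2, IL1RAP and SIGIRR, and the signaling genes MYD88, IRAK1 and IRAK4. They were chosen by gene symbol, and all 10 were found among the 30987 genes of the count table and the 30706 genes of the FPKM table. HepG2 is an established line of human liver cancer cells. The groups were siPAIP1, HepG2 cells transfected with siRNA3 against PAIP1 with a lipid reagent and harvested after 48 h, and Ctrl, HepG2 cells given non-targeting control siRNA in the same way. There were 3 biological replicates per group, all of the same cell line, and a single siRNA against PAIP1 was sequenced, so what siRNA3 does through PAIP1 and through other transcripts cannot be told apart. Poly(A) RNA was sequenced and fragments were counted per gene.

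Interleukin-1 and interleukin-18 are secreted messengers of inflammation. Each binds a receptor of its own, which then recruits an accessory chain, and the TIR domains inside the cell gather the adaptor MYD88 with the kinases IRAK4 and IRAK1, which leads to TRAF6, the kinase TAK1 and the transcription factor NF-κB. The pathway is braked at each level: IL1RN occupies the receptor without starting a signal, IL1R2 is a decoy receptor that lacks the signaling domain, IL18BP captures interleukin-18 in solution, and SIGIRR dampens receptor complexes. Hepatocytes are known as a target of interleukin-1 in the acute-phase response and as a source of IL1RN.

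The siRNA strands are shown because every comparison rests on them. Capitals mark the seed, bases 2 to 8 of the antisense strand.
siRNA3 antisense: uAUCAUCCaaguauggauctt
Control siRNA antisense: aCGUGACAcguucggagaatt
In the canonical transcripts of 12585 tested protein-coding genes (GENCODE release 44), the 19-base target of siRNA3 was found whole in 1, that of PAIP1. The letters that pair with the siRNA3 seed, GGATGAT, stood in the 3′ UTR of 8.5% of those transcripts and of 2 of the 10 members, with 1 match in IL1RAP and 2 in IRAK4. Letters that pair with the control seed, TGTCACG, stood in 3.0% of the transcripts and in 1 member, IL1R1. The 3′ UTRs of IL1RAP (2812 bases), IRAK4 (2829 bases) and IL1R1 (3118 bases) were the longest of the members, followed by MYD88 (1739 bases). A longer 3′ UTR offers more places for a match, and the shares over all transcripts were not matched for length. A match is a description of the letters only, and its part in any change was not tested.

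Promoter windows of RefSeq (GRCh38.p14), each with 250 bases before the transcript start and 50 from it on, matched 9 of the 10 members with 18 windows. IL18 is the member named only. The windows below belong to members of the receptor and antagonist side whose mean level differed by about 2-fold or more, and capitals mark a match to the κB site of NF-κB, to the AP-1 letters TGANTCA, to the C/EBP letters TTGCNNAA or to TATAAA, on either strand.
IL1RN, chr2:113117721-113118020, plus strand: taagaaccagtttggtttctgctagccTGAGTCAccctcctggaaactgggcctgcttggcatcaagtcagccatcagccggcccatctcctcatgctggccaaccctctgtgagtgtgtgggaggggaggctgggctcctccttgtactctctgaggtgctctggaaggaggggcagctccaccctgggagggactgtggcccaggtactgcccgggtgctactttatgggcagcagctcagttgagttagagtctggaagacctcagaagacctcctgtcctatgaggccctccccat
IL1RN, chr2:113127348-113127647, plus strand: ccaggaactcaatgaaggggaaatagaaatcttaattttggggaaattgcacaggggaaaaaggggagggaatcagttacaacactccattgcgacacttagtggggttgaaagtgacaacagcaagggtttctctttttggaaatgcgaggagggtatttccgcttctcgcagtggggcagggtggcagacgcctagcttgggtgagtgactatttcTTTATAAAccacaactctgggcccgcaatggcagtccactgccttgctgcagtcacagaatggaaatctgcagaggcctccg
IL1R2, chr2:101991710-101992009, plus strand: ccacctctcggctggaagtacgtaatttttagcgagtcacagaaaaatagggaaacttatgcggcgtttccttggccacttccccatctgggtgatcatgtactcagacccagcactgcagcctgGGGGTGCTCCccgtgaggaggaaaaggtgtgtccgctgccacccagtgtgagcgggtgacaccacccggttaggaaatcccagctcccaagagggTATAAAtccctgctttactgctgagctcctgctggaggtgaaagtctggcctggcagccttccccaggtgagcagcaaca
IL1RAP, chr3:190513835-190514134, plus strand: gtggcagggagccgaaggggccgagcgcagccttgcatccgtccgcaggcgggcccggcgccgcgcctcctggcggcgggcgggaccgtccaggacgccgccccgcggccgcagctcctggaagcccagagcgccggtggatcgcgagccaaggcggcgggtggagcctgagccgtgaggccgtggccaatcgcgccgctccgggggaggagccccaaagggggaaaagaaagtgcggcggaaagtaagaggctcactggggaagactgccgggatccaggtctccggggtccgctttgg
The upstream IL1RN window holds an AP-1 match that reads on both strands, and the downstream one holds TATAAA on both strands in overlapping letters, from -32 to -25 with the first transcribed base as 0. The IL1R2 window holds a κB match from -125 to -116 and TATAAA from -30 to -25. The remaining windows of IL1RN (chr2:113127239-113127538) and IL1R2 (chr2:101998711-101999010) hold none of the 4 motifs and are not printed. None of the 4 was found in the IL1RAP window, which has 73.7% G and C. Of 35116 windows of the same length, 11.3% held a κB match, 7.7% an AP-1 match, 10.5% a C/EBP match and 11.5% TATAAA. Among the members, κB matches were found in 1 window of IL1R2 and in the window of IRAK1. The IRAK1 window also held an AP-1 match. In windows not printed here, TATAAA stood in 1 window of IL1R1, and a C/EBP match in another window of IL1R1 and in that of IRAK4.

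Libraries held 29313211 to 34659866 counts. PAIP1, whose product binds the poly(A)-binding protein, had 27.8, 21.8 and 20.1 CPM (counts scaled to a common library size, with TMM factors) in siPAIP1 replicates 1 to 3, against 94.6, 81.5 and 90.0 CPM in Ctrl replicates 1 to 3. In 1 library the profile stood apart: siPAIP1 replicate 3 had 357 of 9247 genes with a mean of at least 10 CPM at over 2-fold the mean of the other siPAIP1 libraries, whereas any other library had 0 to 7 such genes against its own group. Values without it are given for IL18BP, IL1R2, IRAK1 and IRAK4. Hepatocyte markers were present in all libraries, and 5 of 9 (ALB, TTR, APOA1, SERPINA1 and TF) fell, where 6.2% of all tested genes fell, with a median log2 fold change (siPAIP1 over Ctrl) of -0.46 over the 9 and a summed level of 6629 to 8575 CPM in siPAIP1 and 10316.5 to 10929 CPM in Ctrl, each of these calls being lost without siPAIP1 replicate 2 or any single Ctrl replicate. Of 9 myeloid markers, 7 averaged under 1 CPM, among them PTPRC and CSF1R with 0 counts in every siPAIP1 library, although LYZ brought the list to 377 to 508 CPM in siPAIP1 and 515 to 569 CPM in Ctrl. The sums were 4.17 to 5.40 CPM in siPAIP1 and 4.92 to 6.68 CPM in Ctrl for lymphoid markers, and 1.40 to 2.69 CPM in siPAIP1 and 1.87 to 2.49 CPM in Ctrl for endothelial markers. Fibroblast and stellate markers gave 122 to 152 CPM in siPAIP1 and 84.5 to 90.6 CPM in Ctrl through ACTA2, which rose, the others averaging under 1 CPM. The part of the hepatocyte and ACTA2 shifts in the results that follow was not tested.

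In siPAIP1 cells 5 of the 10 members fell and 0 rose. IL1RN, IL18 and IL1RAP fell by 2-fold or more, and SIGIRR and IL1R1 fell by less. The calls of SIGIRR and IL1R1 were lost under 7 and 11 of 16 alternative ways of processing, in that order. The other 5 (IL1R2, IL18BP, MYD88, IRAK1 and IRAK4) did not pass the test. A gene was called when its adjusted p was under 0.05 by edgeR's quasi-likelihood test over all 15528 tested genes, and a called gene is named a DEG where it changed by 2-fold or more in either direction. All 10 members were tested. Of all tested genes, 6.2% were called lower and 5.68% higher in siPAIP1, and 1.1% were lower and 1.11% higher DEGs, against 3 and 0 of the 10 members. The 3 siPAIP1 libraries were all lower than the 3 Ctrl libraries in 7 members, as in 17.6% of all tested genes, and all higher in 1 member, as in 19% of them. The median log2 fold change was -0.41 over the members, 0.03 over all tested genes and -0.46 over the hepatocyte markers. It was -0.41 over the members and -0.00082 over all tested genes without siPAIP1 replicate 3. The members were chosen with earlier results of these libraries known, and the study itself singled out IL1RN, IL18 and IL1R2 from them, so the count carries no independent weight. The study named these 3 as DEGs at the same stated thresholds, IL1R2 included, which was not called here. It also reported a significant decrease of each by qPCR on the same RNA samples. In simulated counts of this comparison on 15331 to 15363 genes, 200 genes were changed by 1.5-fold, 2-fold or 4-fold in turn. Of these, 7.5%, 77.5% and 95% were recovered, in that order. The simulation changed only 200 genes, whereas 1845 of the 15528 tested genes were called in these libraries. Adjustment of p is stricter where fewer genes change, so these shares do not measure what could be called here.

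**Figure D1:**
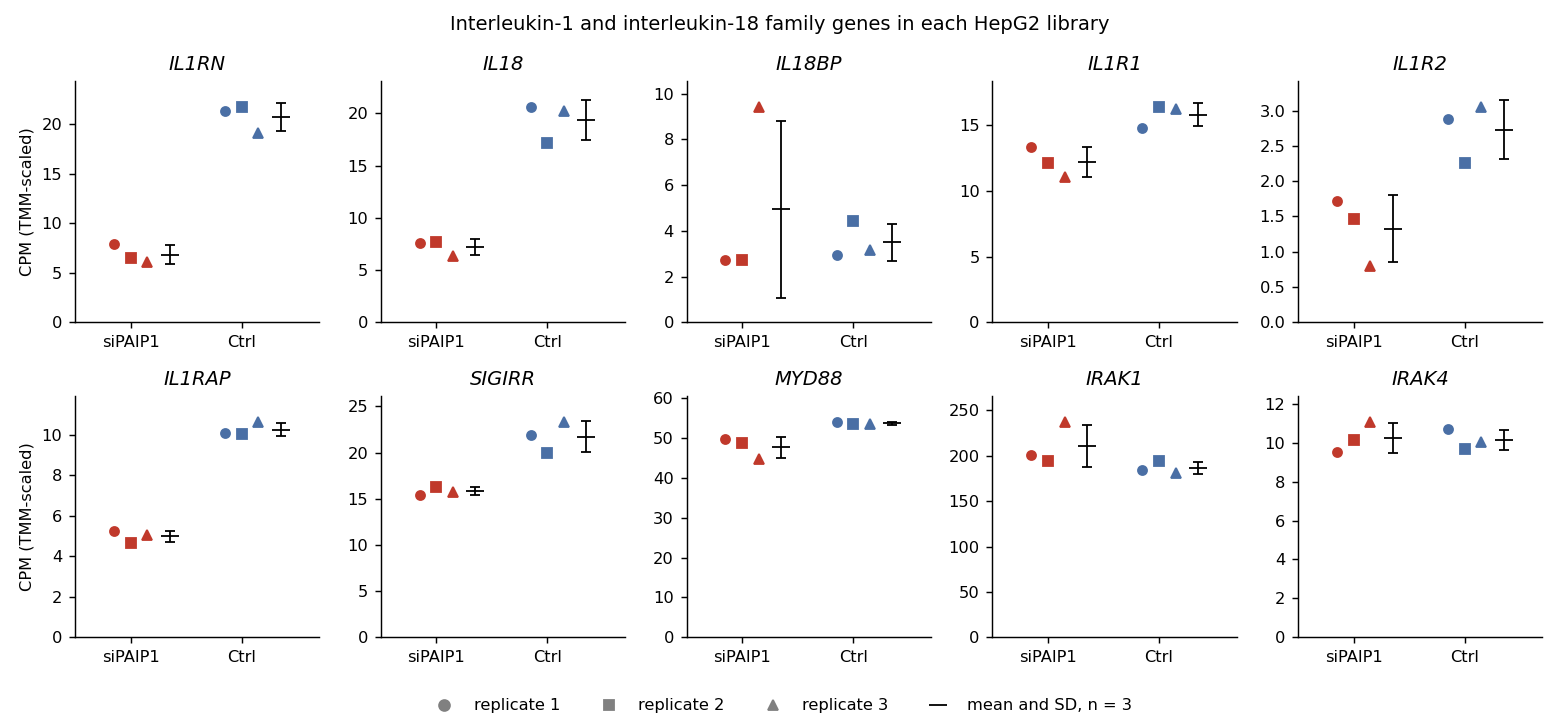
CPM (TMM-scaled, linear axis from 0) of each member in the 6 libraries, with a symbol per replicate, siPAIP1 left and Ctrl right, and black bars for mean and SD of 3 libraries. In IL1RN, IL18, IL1RAP, IL1R2, SIGIRR, IL1R1 and MYD88 the siPAIP1 points all lie below the Ctrl points, and in IL18BP siPAIP1 replicate 3 stands at 9.42 CPM.

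IL1RN encodes the interleukin-1 receptor antagonist. It lies on the plus strand of chromosome 2 at 113099315-113134016 (GRCh38, GENCODE release 44). IL1RN stood at 7.90, 6.49 and 6.04 CPM in siPAIP1 replicates 1 to 3, against 21.3, 21.7 and 19.1 CPM in Ctrl replicates 1 to 3. The groups were far apart, the highest siPAIP1 library being under 8 CPM and the lowest Ctrl library above 19 CPM. The means were 6.81 ± 0.971 CPM in siPAIP1 and 20.7 ± 1.39 CPM in Ctrl (SD, n = 3 each), and the fitted level in siPAIP1 was 32.9% of Ctrl (log2 fold change -1.60 with SE 0.12, and adjusted p = 0.0012 by edgeR's quasi-likelihood test). Of all tested genes, IL1RN had the 38th lowest log2 fold change. Secreted and intracellular forms of the antagonist start at different promoters, and counts per gene do not separate them.

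IL18 encodes interleukin-18, a cytokine made as an inactive precursor. Its locus is on the minus strand of chromosome 11, 112143253-112164096. In siPAIP1 replicates 1 to 3 IL18 had 7.61, 7.72 and 6.37 CPM, against 20.6, 17.2 and 20.3 CPM in Ctrl replicates 1 to 3. All siPAIP1 libraries were below 8 CPM and all Ctrl libraries above 17 CPM. IL18 averaged 7.23 ± 0.750 CPM in siPAIP1 and 19.4 ± 1.89 CPM in Ctrl (SD, n = 3 each). It fell to 37.4% of the Ctrl level (log2 fold change -1.42 with SE 0.12, and adjusted p = 0.0014 by edgeR's quasi-likelihood test). Whether fewer cells made IL18 or each cell held less of its RNA cannot be told apart in bulk libraries, and the same holds for every gene here.

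IL18BP, which encodes the soluble binding protein of interleukin-18, did not pass the test, and 1 library set its direction. It had 2.71, 2.72 and 9.42 CPM in siPAIP1 replicates 1 to 3, against 2.93, 4.43 and 3.15 CPM in Ctrl replicates 1 to 3. Replicates 1 and 2 of siPAIP1 lay below all Ctrl libraries and replicate 3 above all of them. The log2 fold change was 0.49 (SE 0.49, and adjusted p = 0.54 by edgeR's quasi-likelihood test) and turned to -0.37 (SE 0.19, adjusted p = 0.17, the same test) without siPAIP1 replicate 3.

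IL18BP lies on the plus strand of chromosome 11 at 71998613-72007315, and NUMA1, a nuclear mitotic apparatus gene on the opposite strand, overlaps it. The genes share 1031 exonic bases, 17.6% of the 5851 exonic bases of IL18BP in GENCODE release 44. NUMA1 had 96.8, 98.0 and 335 CPM in siPAIP1 replicates 1 to 3, against 70.3, 80.7 and 69.2 CPM in Ctrl replicates 1 to 3. Its log2 fold change was 1.27 (SE 0.47, and adjusted p = 0.13 by edgeR's quasi-likelihood test), or 0.40 (adjusted p = 0.00084, the same test) without siPAIP1 replicate 3. Both genes were thus high in siPAIP1 replicate 3, at 3.47 (IL18BP) and 3.44 (NUMA1) times the mean of siPAIP1 replicates 1 and 2. The ratio of NUMA1 to IL18BP in CPM was 35.7, 36.1 and 35.5 in siPAIP1 replicates 1 to 3, against 24.0, 18.2 and 22.0 in Ctrl replicates 1 to 3, so it was nearly level within siPAIP1 while the level of each gene more than tripled. The library preparation kept strand, but whether the counting used it is not given in the sources used here. Without strand, reads that lie within the 1031 shared exonic bases cannot be assigned to 1 of the 2 genes. The part of NUMA1 reads in the IL18BP counts was not tested.

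**Figure D2:**
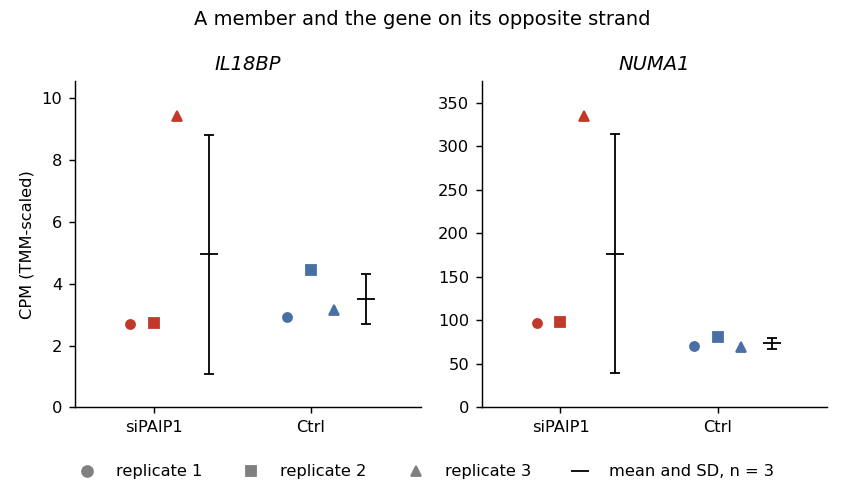
CPM (TMM-scaled, linear axes from 0, of different height) of IL18BP and of NUMA1, which overlaps it on the opposite strand, in the 6 libraries, siPAIP1 left and Ctrl right, with mean and SD of 3 libraries. In both genes siPAIP1 replicate 3 is far above the other 5 libraries, at 9.42 CPM for IL18BP and 335 CPM for NUMA1.

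IL1RAP had the largest called change among the receptor genes. IL1RAP encodes the chain that interleukin-1 receptors share and that completes the signaling complex, and lies on the plus strand of chromosome 3 at 190514051-190659750. IL1RAP had 5.22, 4.66 and 5.04 CPM in siPAIP1 replicates 1 to 3, against 10.1, 10.0 and 10.6 CPM in Ctrl replicates 1 to 3. Replicates lay close together in each group and the groups did not overlap. The means were 4.97 ± 0.284 CPM in siPAIP1 and 10.2 ± 0.334 CPM in Ctrl (SD, n = 3 each; log2 fold change -1.04 with SE 0.097, and adjusted p = 0.0019 by edgeR's quasi-likelihood test), which made IL1RAP a lower DEG by a small margin. Without siPAIP1 replicate 2 its log2 fold change was -0.9988, just short of the fold threshold, with the call kept (adjusted p = 0.012, the same test).

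IL1R1 and IL1R2, the signaling receptor and the decoy, are neighbours on the plus strand of chromosome 2, at 102064544-102179874 and 101991960-102028544, with 36.0 kb between them. For IL1R1 the siPAIP1 replicates had 13.4, 12.2 and 11.1 CPM, against 14.8, 16.4 and 16.2 CPM in the Ctrl replicates. The groups did not overlap, but the gap was narrow. IL1R1 fell to 77.2% of the Ctrl level (log2 fold change -0.37 with SE 0.097, and adjusted p = 0.048 by edgeR's quasi-likelihood test). The call was lost without siPAIP1 replicate 1 or 2 or any single Ctrl replicate (adjusted p = 0.051 to 0.16, the same test) and with DESeq2 (adjusted p = 0.057). By the quasi-likelihood test it was also lost with upper-quartile factors (adjusted p = 0.068) and with no filter on low counts (adjusted p = 0.056). Of 16 alternatives, 5 called IL1R1 and 11 did not.

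IL1R2 had 1.72, 1.46 and 0.796 CPM in siPAIP1 replicates 1 to 3, against 2.87, 2.26 and 3.05 CPM in Ctrl replicates 1 to 3. These rest on 59, 51 and 24 counts in siPAIP1 and 96, 75 and 93 counts in Ctrl. All siPAIP1 libraries were below all Ctrl libraries, with replicate 3 lowest, yet the test just missed its threshold (log2 fold change -1.03 with SE 0.28, and adjusted p = 0.057 by edgeR's quasi-likelihood test). Without siPAIP1 replicate 3 the difference was smaller and was called (-0.78, SE 0.20, adjusted p = 0.011, the same test), and DESeq2 called it with all 6 libraries (-1.05, adjusted p = 0.019). By the quasi-likelihood test, adjusted p was 0.12 without siPAIP1 replicate 2, 0.18 without Ctrl replicate 1 and 0.20 without Ctrl replicate 3. Of 16 alternatives, 5 called IL1R2 and 11 did not.

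SIGIRR encodes an inhibitory receptor of the family and sits on the minus strand of chromosome 11, 405716-417455. It had 15.4, 16.3 and 15.8 CPM in siPAIP1 replicates 1 to 3, against 21.9, 19.9 and 23.3 CPM in Ctrl replicates 1 to 3. No siPAIP1 library reached the lowest Ctrl library. SIGIRR fell to 72.9% of the Ctrl level (log2 fold change -0.46 with SE 0.085, and adjusted p = 0.017 by edgeR's quasi-likelihood test). The adjusted p exceeded 0.05 without siPAIP1 replicate 1 or 2 or Ctrl replicate 1 or 3 (0.053 to 0.080, the same test).

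**Figure D3:**
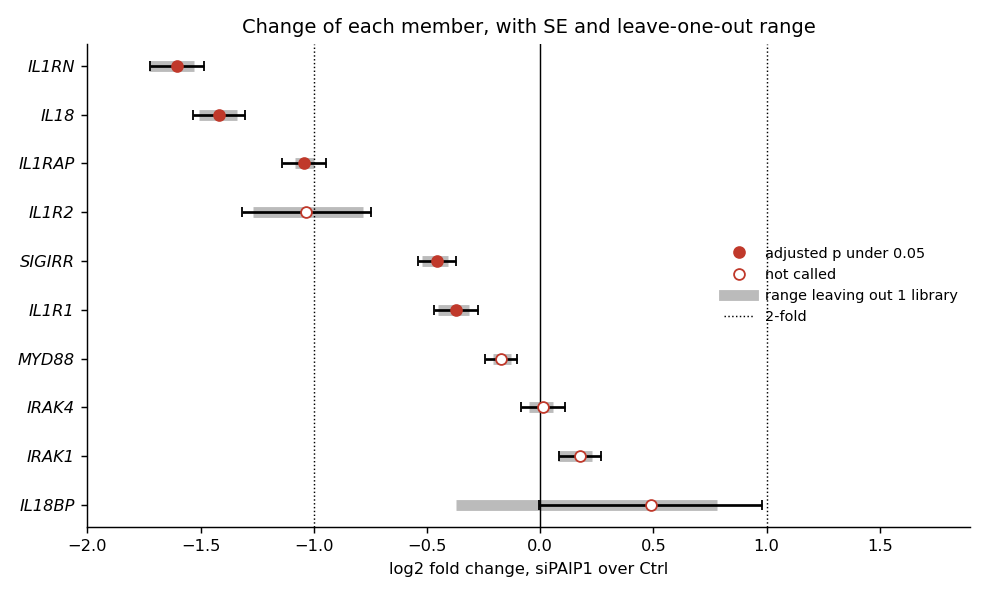
Log2 fold change (siPAIP1 over Ctrl) of each member by edgeR's quasi-likelihood fit, with SE as black bars, grey bands for the range when 1 library at a time is left out, and dotted lines at 2-fold. The filled points (IL1RN, IL18, IL1RAP, SIGIRR and IL1R1) were called, and only the band of IL18BP reaches far across 0, from -0.37 to 0.78, that of IRAK4 running from -0.05 to 0.057.

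The shared signaling genes did not pass the test. MYD88, the adaptor of interleukin-1, interleukin-18 and most Toll-like receptors, on chromosome 3 at 38138552-38143024, had 49.7, 48.7 and 44.7 CPM in siPAIP1 replicates 1 to 3, against 54.1, 53.6 and 53.4 CPM in Ctrl replicates 1 to 3. Its siPAIP1 libraries all lay below the Ctrl libraries, by a log2 fold change of -0.17 (SE 0.071, and adjusted p = 0.16 by edgeR's quasi-likelihood test). IRAK1, the kinase that carries the signal to TRAF6, lies on chromosome X at 154010506-154019902. Levels of IRAK1 were 201, 194.04 and 238 CPM in siPAIP1 replicates 1 to 3, against 185, 194.01 and 181 CPM in Ctrl replicates 1 to 3. The highest Ctrl library and the lowest siPAIP1 library of IRAK1 differed by less than 0.1 CPM, and the log2 fold change was 0.18 (SE 0.093, and adjusted p = 0.25 by edgeR's quasi-likelihood test), or 0.08 (SE 0.066, adjusted p = 0.43, the same test) without siPAIP1 replicate 3. IRAK4, the first kinase of the complex, on chromosome 12 at 43758944-43798307, had 9.53, 10.1 and 11.1 CPM in siPAIP1 replicates 1 to 3, against 10.7, 9.68 and 10.0 CPM in Ctrl replicates 1 to 3. Its groups overlapped (log2 fold change 0.01 with SE 0.097, and adjusted p = 0.94 by edgeR's quasi-likelihood test), and its sign turned with RLE factors, with DESeq2, with no filter on low counts and without siPAIP1 replicate 3 (-0.05), Ctrl replicate 2 or Ctrl replicate 3. IRAK4 shares 103 exonic bases with TWF1 on the opposite strand, which averaged 77.2 ± 10.6 CPM in siPAIP1 and 78.5 ± 3.62 CPM in Ctrl (SD, n = 3 each).

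Levels of different members can be compared only per length, by FPKM. In siPAIP1 the order was IRAK1 (51.3), MYD88 (15.2), SIGIRR (6.86), IL18 (5.69), IL1RN (2.70), IRAK4 (2.15), IL1R1 (1.77), IL18BP (1.06), IL1R2 (0.660) and IL1RAP (0.453), in mean FPKM. In Ctrl it was IRAK1 (44.7), MYD88 (16.8), IL18 (14.9), SIGIRR (9.23), IL1RN (8.04), IL1R1 (2.25), IRAK4 (2.10), IL1R2 (1.32), IL1RAP (0.923) and IL18BP (0.757). Neighbours with overlapping library ranges were IL1R1 with IL18BP, IL18BP with IL1R2 and IL1R2 with IL1RAP in siPAIP1, and IL1R1 with IRAK4 and IL1RAP with IL18BP in Ctrl. IL18, above SIGIRR in every Ctrl library, was below it in every siPAIP1 library.

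**Figure D4:**
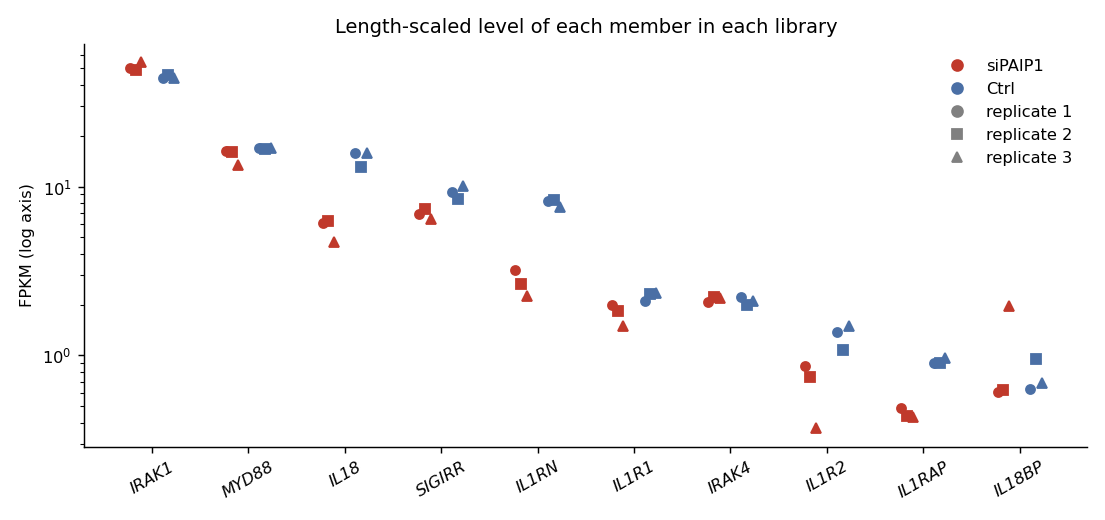
FPKM (log axis) of each member in each library, ordered by the Ctrl mean, with siPAIP1 left of Ctrl and a symbol per replicate. IRAK1 is at 44.1 FPKM or more in all 6 libraries, and the receptor chains IL1R2 and IL1RAP are at 1.5 FPKM or less.

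Ratios of FPKM between members describe how their balance stood in each library, with no test. The antagonist over the signaling receptor, IL1RN over IL1R1, was 1.61, 1.46 and 1.49 in siPAIP1 replicates 1 to 3, against 3.92, 3.61 and 3.22 in Ctrl replicates 1 to 3. For the decoy, IL1R2 over IL1R1 was 0.437, 0.407 and 0.247 in siPAIP1, against 0.657, 0.468 and 0.641 in Ctrl. The accessory chain over the receptor, IL1RAP over IL1R1, was 0.246, 0.242 and 0.287 in siPAIP1, against 0.429, 0.390 and 0.415 in Ctrl. None of these 3 ratios overlapped between the groups, each being lower in siPAIP1. They reuse the values of the single genes and carry no weight beyond them. Fitted levels in siPAIP1 were 32.9% of Ctrl for IL1RN, 48.9% for IL1R2 and 48.6% for IL1RAP, against 77.2% for IL1R1. Of single tested genes, 17.6% had all siPAIP1 libraries below all Ctrl libraries, and no such share was computed for ratios. The gap of IL1R2 over IL1R1 was narrow, 0.437 against 0.468, and its siPAIP1 values rest on 24 to 59 counts of IL1R2. IL18 over IL18BP was 10.0, 10.1 and 2.40 in siPAIP1 and 25.1, 13.8 and 22.9 in Ctrl, where the counts of IL18BP carry the limit given above.

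Of 15 other ligands and receptors of the family, the 6 with values had 10 counts or fewer in every library. IL1B, the main secreted interleukin-1, had 1 count in siPAIP1 replicate 3 and 0 in the other 5 libraries, and IL36G, an epithelial family member, had 1 count in Ctrl replicate 3 only. IL37, an anti-inflammatory member, had 7, 4 and 6 counts in siPAIP1 and 6, 3 and 3 counts in Ctrl. Of the receptors, IL1RL1, the interleukin-33 receptor, had 0 to 4 counts in siPAIP1 and 1 to 2 in Ctrl, IL1RAPL1 had 5 to 10 in siPAIP1 and 4 to 6 in Ctrl, and IL1RAPL2 had 0 to 2 in either group. A count of 0 allows up to 3 counts in a library, so expression at that level was not detectable. IL1A, IL33, IL36A, IL36B, IL36RN, IL1F10, IL18R1, IL18RAP and IL1RL2 were not found by symbol in the count table, so no level is given for them.

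Around MYD88 and the IRAKs, most genes did not pass the test. Of 16 genes of the IRAK, TRAF6 and TAK1 step, 14 were tested, 0 rose and 1 fell, a count near the background of 5.68% higher and 6.2% lower over all tested genes. That was TAB3, a subunit that activates TAK1, at 40.7 ± 0.321 CPM in siPAIP1 and 55.5 ± 3.68 CPM in Ctrl (SD, n = 3 each; log2 fold change -0.45 with SE 0.075, and adjusted p = 0.012 by edgeR's quasi-likelihood test), a call lost without siPAIP1 replicate 2 or Ctrl replicate 1. All 15 IKK and NF-κB genes were tested, and 1 rose and 0 fell, also near that background. NFKBIB, an inhibitor of NF-κB, rose to 32.9 ± 2.25 CPM in siPAIP1, against 24.9 ± 1.10 CPM in Ctrl (SD, n = 3 each; log2 fold change 0.40, SE 0.082, adjusted p = 0.022, the same test), a call lost without siPAIP1 replicate 2 or any single Ctrl replicate. Of 12 Toll-like receptor genes with CD14 and LY96, 4 were tested and 0 were called. The 2 with the highest level, TLR2 and LY96, stood at 1.63 ± 0.329 and 0.658 ± 0.124 CPM in siPAIP1 and at 1.66 ± 0.402 and 0.681 ± 0.168 CPM in Ctrl (SD, n = 3 each). Median log2 fold changes were -0.0039 for the IRAK, TRAF6 and TAK1 step, 0.17 for the IKK and NF-κB genes and -0.04 for the Toll-like receptor list.

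Of 11 stress kinase genes below TAK1, all tested, 3 rose and 1 fell, where 5.68% of all tested genes rose and 6.2% fell, and 7 did not pass the test. Their median log2 fold change was 0.0098. The p38 kinases MAPK11, MAPK12 and MAPK13 rose. MAPK11 had 5.98 ± 1.09 CPM in siPAIP1 and 1.79 ± 0.306 CPM in Ctrl (SD, n = 3 each; log2 fold change 1.74 with SE 0.19, and adjusted p = 0.0031 by edgeR's quasi-likelihood test). By the same test MAPK12 had a log2 fold change of 0.56 with SE 0.084 (adjusted p = 0.0080) and MAPK13 one of 0.42 with SE 0.11 (adjusted p = 0.043). MAP2K6, a kinase that activates p38, fell to 8.26 ± 1.48 CPM in siPAIP1, against 13.4 ± 1.31 CPM in Ctrl (SD, n = 3 each; log2 fold change -0.69, SE 0.15, adjusted p = 0.026, the same test). MAP2K6 and MAPK13 were no longer called without siPAIP1 replicate 2 or any single Ctrl replicate, and MAPK12 without Ctrl replicate 1.

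Among 14 genes of caspases and the inflammasome, the machinery that matures interleukin-18, 7 were tested, 1 rose and 1 fell (median log2 fold change -0.02), where 5.68% of all tested genes rose and 6.2% fell. CASP8, a caspase of cell death and cytokine processing, rose to 37.6 ± 5.78 CPM in siPAIP1, against 25.4 ± 0.725 CPM in Ctrl (SD, n = 3 each; log2 fold change 0.56 with SE 0.12, and adjusted p = 0.022 by edgeR's quasi-likelihood test). NEK7, a partner of NLRP3, fell to 7.09 ± 0.598 CPM in siPAIP1, against 9.85 ± 0.563 CPM in Ctrl (SD, n = 3 each; -0.47, SE 0.10, adjusted p = 0.029, the same test). Both calls were lost without siPAIP1 replicate 2 or any single Ctrl replicate, and that of NEK7 also without siPAIP1 replicate 1. CASP1, the classical interleukin-18 convertase, named here after its values were seen, was filtered out with 1 to 3 counts in siPAIP1 and 4 to 6 counts in Ctrl.

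Of 22 genes known to respond to interleukin-1, many of them in liver, 13 were tested, 5 fell and 0 rose, where 6.2% of all tested genes fell and 5.68% rose. Their median log2 fold change was -0.20, and 3 of the 5 calls did not hold when single libraries were left out. Of the hepatocyte markers, 5 of 9 fell, with a median of -0.46, and whether the falls are related was not tested. Some genes of the list that were not tested are named here after their values were seen. SAA1 and CRP were not found by symbol, and IL6, CCL2 and SAA2 were filtered out with 0 to 2 counts in each library. HAMP, which encodes the iron hormone hepcidin, fell to 11.0 ± 1.19 CPM in siPAIP1, against 41.0 ± 4.14 CPM in Ctrl (SD, n = 3 each; log2 fold change -1.90 with SE 0.11, and adjusted p = 0.00085 by edgeR's quasi-likelihood test). The chemokine CCL20 fell to 11.6 ± 1.37 CPM in siPAIP1, against 21.5 ± 1.46 CPM in Ctrl (SD, n = 3 each; -0.88, SE 0.11, adjusted p = 0.0047, the same test). ORM1 and ORM2, near-identical acute-phase genes between which reads can be split wrongly, fell by 0.53 and 0.52 on the log2 scale, and the adhesion gene ICAM1 fell by 0.36. These 3 calls were lost without siPAIP1 replicate 2 or Ctrl replicate 1 or 3, those of ORM1 and ICAM1 also without Ctrl replicate 2, and that of ICAM1 without siPAIP1 replicate 1. The study singled out HAMP from these libraries, and the other 8 tested genes of the list, among them CXCL8, SOD2 and C3, did not pass the test.

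**Figure D5:**
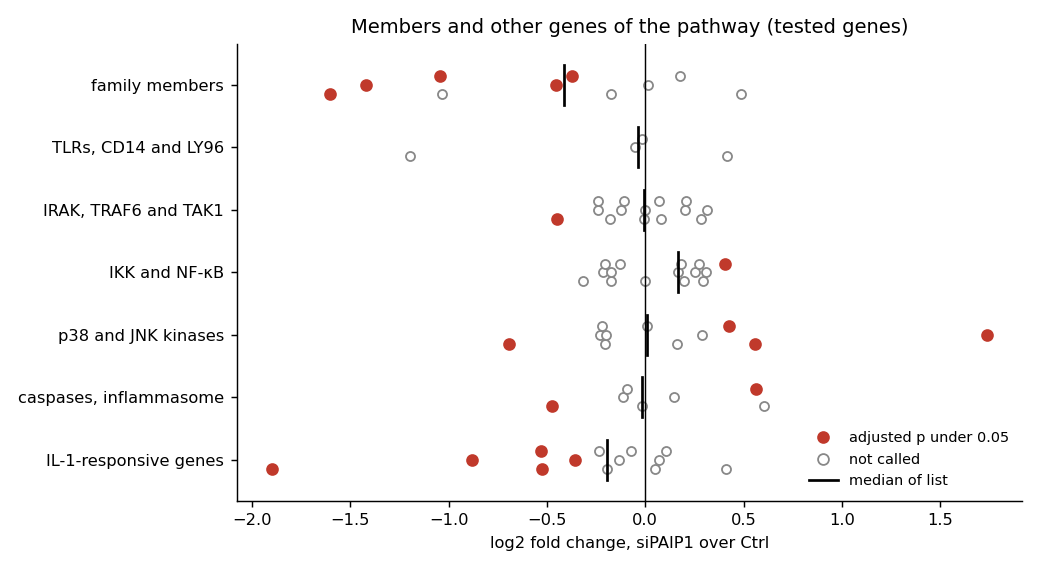
Log2 fold change (siPAIP1 over Ctrl) of the 10 members and of the tested genes in 6 other lists of the pathway, 1 point per gene, filled where the adjusted p was under 0.05, with a bar at each list's median. The members' median lies at -0.41, and the other lists plotted have medians from -0.20 to 0.17, the hepatocyte markers, at -0.46, not being plotted.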

How the data were processed

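Poly(A) RNA of 6 HepG2 libraries, 3 siPAIP1 and 3 Ctrl, was analysed, grouped by the sample titles. The deposited counts are whole numbers, per gene, of fragments mapped to 1 place, which the authors obtained with bcl2fastq, FASTX-Toolkit trimming and TopHat2 alignment to GRCh38 and deposited without normalization. FPKM values were computed by the authors by exon length and library size, and deposited with 2 decimals. Which tool counted the fragments, is not given in the sources used here, nor are the annotation and strand setting.

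Counts were scaled by TMM and filtered by filterByExpr in edgeR 4.0.16 (R 4.3.3), leaving 15528 genes, and siPAIP1 was set against Ctrl by glmQLFit and glmQLFTest without covariates, p-values being adjusted over these genes by Benjamini and Hochberg. The SE is the fitted log2 change over the root of F. The study used edgeR, with the kind of test unstated. Exact permutation of single values (3 against 3) could reach p = 0.1 at the lowest, which PAIP1 FPKM gave. The code was tested on simulated data. Alternatives were RLE and upper-quartile factors, other filters on low counts, DESeq2 1.42.0, edgeR's exact test, limma-trend (limma 3.58.1) on log2(FPKM + 1) and log2(FPKM + 0.1) for genes with a mean FPKM of at least 0.1, a replicate block and leaving out each library. Leaving out siPAIP1 replicate 3 with Ctrl replicate 2 was added after the data were seen. Tables and figures used Python 3.11.15, pandas 2.3.3 and matplotlib 3.10.9.

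Members and gene lists were chosen with earlier results of these data known. Named genes are all members, PAIP1, the other family ligands and receptors, up to 6 called genes of each pathway list (the 2 with the highest level where none was called) and genes that overlap a member. Coordinates and overlaps come from GENCODE release 44 on GRCh38, which may differ from the annotation the authors used.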

Additional observations from a re-analysis of the deposited data

How the results depend on the processing

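IL1RN, IL18, IL1RAP and PAIP1 kept their direction and their call under all 16 alternatives. With limma-trend on log2(FPKM + 1) or log2(FPKM + 0.1), and with the replicate block, 3 members were called lower, in place of 5, and leaving out 1 library gave 3 to 6. Over all genes, 963 were lower and 882 higher, against 410 and 505 with log2(FPKM + 1), 437 and 556 with log2(FPKM + 0.1), 459 and 366 with the replicate block, and 2552 and 2363 without both siPAIP1 replicate 3 and Ctrl replicate 2. Leaving out 1 library gave 269 to 1952 lower and 187 to 1857 higher genes, the highest being without siPAIP1 replicate 3. The cause was not tested. The calls of IL1R1 and SIGIRR were both lost with the block. IL18BP had a log2 fold change of -0.17 without both libraries, and from -0.37 to 0.78 when 1 library was left out. That of IRAK4 was -0.0022 with RLE factors, -0.0032 with no filter, -0.0026 with DESeq2, -0.084 without both libraries, and from -0.05 to 0.057 when 1 library was left out. Among DEGs, 2 to 4 members were lower under every alternative. No pairing of same-numbered libraries is given in the sources used here. Deviations from the group means correlated at 0.26, -0.28 and -0.15 between same-numbered libraries of replicates 1, 2 and 3. The highest correlation was 0.39, between siPAIP1 replicate 3 and Ctrl replicate 2. Deviations from a mean of 3 libraries depend on each other, so these values cannot settle whether replicates were paired.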
